A study of Mus musculus with 12 samples.

Results

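The replication-dependent histone genes of mouse chromosome 13 were taken as all protein-coding genes of a 2.5 Mb window (mm10) whose symbol begins with Hist1h, H1f, H2ac, H2bc, H3c or H4c. The rule found 53 of the 21631 protein-coding genes on chromosomes 1 to 19 and X: 6 H1, 13 H2A, 14 H2B, 9 H3 and 11 H4 genes, which span 21715711 to 23934913. Open chromatin was measured by ATAC-seq, in which the transposase Tn5 inserts into accessible DNA, in 12 libraries of embryoid bodies grown from mouse embryonic stem cells towards mesoderm. Irradiated fibroblast feeders had supported the stem cells and were plated out before differentiation. Knockout of Foxk1 (KO) was sampled at days 3, 5 and 10, with 2 libraries a day, against 2 libraries of iHA-Foxk1 cells at day 3, 2 at day 5, and 2 labelled Control at day 10. All 12 libraries carry the label NoDox, and the iHA-Foxk1 and Control libraries are the controls of their own day. The labels name no separate clones or differentiations, so the error behind each p-value is that between libraries of a group and may be technical only.

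Replication-dependent histone genes are short, have no introns and are transcribed as DNA is copied in S phase. Their mRNAs end in a stem-loop bound by SLBP in place of a poly(A) tail, and NPAT, a target of cyclin E and CDK2, drives their transcription in the histone locus body. H2A and H2B genes often sit head to head and share 1 promoter, in which an octamer bound by POU2F1 is typical of H2B genes, while H4 genes are bound by HINFP and H1 genes carry an AC box. Foxk1 is a forkhead transcription factor, known mainly as a repressor.

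The windows below, 250 bases before to 50 bases after the annotated start, show the starts on which the results turn, as given by RefSeq for GRCm38.p6. H2ac12 (chr13:22035594-22035893, minus strand) is in an H2A-H2B pair with summits near the top of most lists. H2bc3 (chr13:23746484-23746783, plus strand) had the largest change past the test between days 3 and 5, and H3c6 (chr13:23562336-23562635, minus strand) had the best median rank. H4c12 (chr13:21750504-21750803, minus strand) was called at day 5. H2ac1 (chr13:23934187-23934486, plus strand) and H1f6 (chr13:23695561-23695860, plus strand) are testis histone genes. Each is written 5′ to 3′ on the gene's strand, and capitals mark a TATA box (TATAAA, on the gene's strand), a CCAAT box (CCAAT or ATTGG), the octamer (ATTTGCAT or ATGCAAAT) and an AC box (AAACACA or TGTGTTT). No motif overlapped another in these windows.
H2ac12: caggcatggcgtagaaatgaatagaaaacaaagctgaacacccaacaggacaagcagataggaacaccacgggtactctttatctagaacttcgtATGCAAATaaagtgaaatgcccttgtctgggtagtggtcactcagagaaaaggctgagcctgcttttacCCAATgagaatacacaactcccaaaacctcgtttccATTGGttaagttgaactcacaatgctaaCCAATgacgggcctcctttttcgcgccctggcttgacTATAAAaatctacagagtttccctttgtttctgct
H2bc3: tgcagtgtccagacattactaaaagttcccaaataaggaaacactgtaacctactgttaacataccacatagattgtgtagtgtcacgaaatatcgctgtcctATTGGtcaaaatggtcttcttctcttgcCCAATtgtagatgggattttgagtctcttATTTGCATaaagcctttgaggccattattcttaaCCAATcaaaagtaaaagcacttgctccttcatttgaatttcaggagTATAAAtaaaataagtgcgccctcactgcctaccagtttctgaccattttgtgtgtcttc
H3c6: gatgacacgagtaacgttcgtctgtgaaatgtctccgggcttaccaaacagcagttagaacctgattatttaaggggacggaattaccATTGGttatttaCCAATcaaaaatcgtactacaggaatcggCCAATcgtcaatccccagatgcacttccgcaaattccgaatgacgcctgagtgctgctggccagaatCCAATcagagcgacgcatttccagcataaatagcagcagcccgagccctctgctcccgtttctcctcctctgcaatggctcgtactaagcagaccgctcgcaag
H4c12: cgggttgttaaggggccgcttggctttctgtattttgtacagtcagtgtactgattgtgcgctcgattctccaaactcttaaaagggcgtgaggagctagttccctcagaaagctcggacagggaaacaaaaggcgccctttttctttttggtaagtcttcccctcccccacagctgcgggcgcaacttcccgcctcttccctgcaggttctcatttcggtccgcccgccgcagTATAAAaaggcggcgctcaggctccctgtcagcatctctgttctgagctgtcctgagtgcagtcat
H2ac1: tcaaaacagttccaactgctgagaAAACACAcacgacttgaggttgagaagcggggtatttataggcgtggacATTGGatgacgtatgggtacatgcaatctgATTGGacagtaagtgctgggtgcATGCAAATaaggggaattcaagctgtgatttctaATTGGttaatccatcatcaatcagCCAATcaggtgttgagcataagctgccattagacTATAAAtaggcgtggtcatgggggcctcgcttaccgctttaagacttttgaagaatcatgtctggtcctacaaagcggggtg
H1f6: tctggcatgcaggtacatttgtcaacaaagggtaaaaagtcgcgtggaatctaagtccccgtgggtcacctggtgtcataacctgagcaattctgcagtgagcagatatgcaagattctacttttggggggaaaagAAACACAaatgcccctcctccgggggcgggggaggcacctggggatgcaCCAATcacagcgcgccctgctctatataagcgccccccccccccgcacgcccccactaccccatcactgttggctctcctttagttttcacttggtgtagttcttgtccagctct

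Windows were found for 50 of the 53 genes (51 windows). TATAAA was in 51.0% of them, against 8.29% of the 21045 windows of all genes, and CCAAT or ATTGG was in 84.3%, against 38.5%. The TATAAA matches of the histone genes began at -250 to 41 from the start, and that of H2ac12 at 15, after the start. A match anywhere in the window was counted. The octamer was in 21.6% of the histone windows, in 5 of H2A and 6 of H2B genes, against 1.68% of all windows. An AC box was in 17.6% of the histone windows, against 6.19% of all, and in 5 of the 6 H1 windows, at -122 to -112 from the start. A forkhead core (GTAAACA or TGTTTAC) was in 0 of the histone windows, against 3.03% of all windows. These are matches of letters and not measured binding sites.

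The files are MACS2 summit lists, 1 position and 1 score per open site, with no read counts, so the sequencing depth is unknown. A gene was given a summit when 1 lay within 1 kb of either gene end, and the summit's rank counts from the highest score of its own list. The KO lists held 59006 and 53456 summits (day 3), 48391 and 42129 (day 5) and 4028 and 4755 (day 10). The iHA-Foxk1 lists held 53473 and 54100 (day 3) and 14519 and 34040 (day 5), and the Control lists of day 10 held 10548 and 7764. Lists of unequal length were set side by side by their N best summits alone, where N is how many the shortest list held. N was 53456 for day 3, 14519 for day 5 and for both days together, and 4028 for day 10.

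One library stood apart. The iHA-Foxk1 day 5 replicate 1 list was the shortest of days 3 and 5, and 0 of 5 pluripotency and 0 of 5 primitive streak markers had a summit in it. The other 7 lists of those days held 2 to 5 pluripotency and 5 of 5 streak markers. These are whole lists, each longer than the 14519 summits of iHA-Foxk1 day 5 replicate 1. In both KO lists of day 5 every streak marker ranked past 14519. In iHA-Foxk1 day 5 replicate 2 only Eomes, at 13167.5, ranked within it. The streak count therefore does not set replicate 1 apart at day 5. Of the pluripotency markers, Sox2 alone ranked within 14519 in each of those lists, at 9449 and 6227 in KO and 10335.5 in iHA-Foxk1. Results that rest on iHA-Foxk1 day 5 replicate 1 are given with and without it. Foxk1 and its relative Foxk2 both had a summit in the 4 KO lists of days 3 and 5, and a summit at a gene end does not check a knockout. Fibroblast markers had 2 to 3 of 5 summits in the KO lists and 1 to 3 in the iHA-Foxk1 lists of days 3 and 5, and 0 of 5 in the 4 lists of day 10.

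Open sites lay at nearly all of the histone genes at days 3 and 5. At day 3, 51 and 52 of 53 had a summit in KO and 48 and 49 in iHA-Foxk1. At day 5, 49 and 50 had one in KO, against 40 and 50 in iHA-Foxk1. At day 10, 4 and 12 had one in KO, against 33 and 22 in Control. These counts are from whole lists of unequal length. Among the 14519 best of day 5 they were 40 and 39 in KO, against 40 and 40 in iHA-Foxk1. Among the 4028 best of day 10 they were 4 and 8 in KO, against 11 and 4 in Control, so the groups overlapped. In these bulk libraries, fewer cells with an open site and a less open site per cell cannot be told apart. The day 10 lists were much shorter, and their lowest scores were 1.78 to 1.85, against 1.3 at days 3 and 5. Their summit names also lack the deduplication tag of the earlier lists, so day and processing cannot be told apart at day 10.

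Across all protein-coding genes the share with a summit was lower in 11 of the 12 lists. At day 3 the histone genes stood at 96.2% and 98.1% in KO and at 90.6% and 92.5% in iHA-Foxk1, while all genes stood at 62.7 to 64.1%. At day 5 they stood at 92.5% and 94.3% in KO, against 75.5% and 94.3% in iHA-Foxk1. All genes at day 5 stood at 61.8% and 61.1% in KO and at 44.1% and 59.2% in iHA-Foxk1. At day 10 the histone genes stood at 7.55% and 22.6% in KO, against 62.3% and 41.5% in Control, while all genes stood at 11.2% and 14.3% in KO and at 34.5% and 26.3% in Control. KO day 10 replicate 1 was thus the exception in whole lists. Among the 4028 best of day 10 the histone genes stood at 7.55% and 15.1% in KO, against 20.8% and 7.55% in Control. All genes then stood at 11.2% and 12.2% in KO, against 15.9% and 15.1% in Control. The other 61 protein-coding genes of the window, among them many vomeronasal and olfactory receptor genes, had a summit at 11 or fewer genes in each list. The 61 include H4bc24, a histone-type symbol outside the rule. At day 5 it ranked 3639 and 6812 in KO and 1834 and 5713 in iHA-Foxk1, by the same summits as H2ac24.

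**Figure D1:**
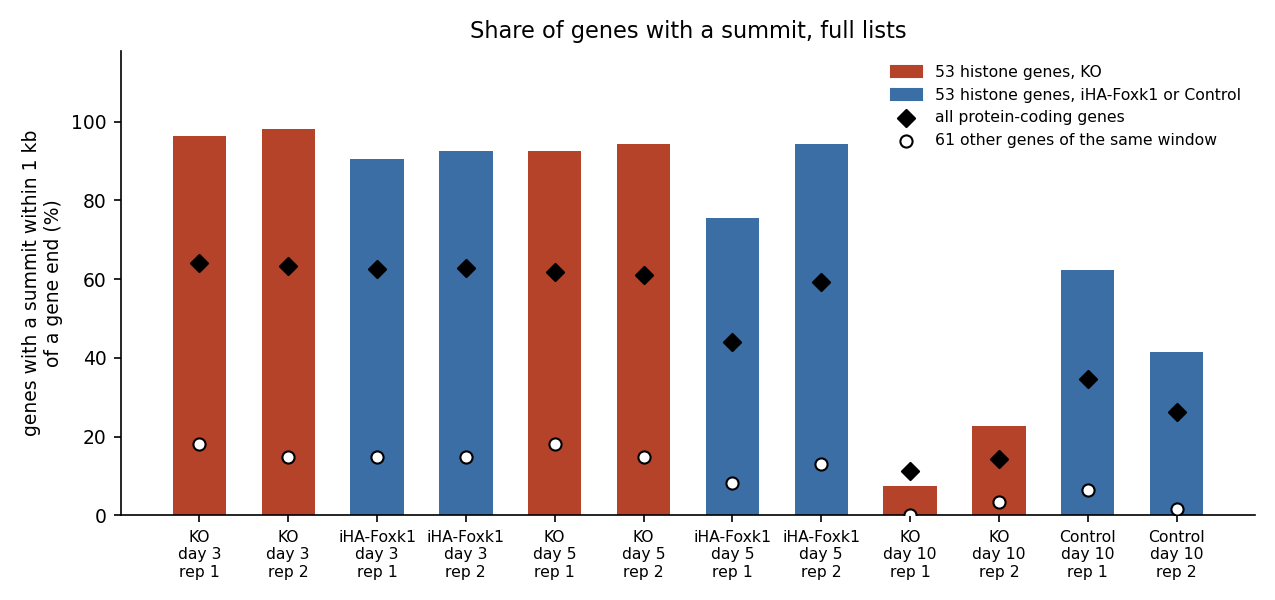
Percent of genes with a summit within 1 kb of a gene end in each of the 12 lists: bars are the 53 histone genes (KO left of its control at each day), diamonds all protein-coding genes, circles the 61 other genes of the window. The bars lie above the diamonds in 11 lists and below in KO day 10 replicate 1 (7.55%, against 11.2%). Lists are whole and of unequal length.

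Of the 53 genes, 39 had a summit in all 8 lists of days 3 and 5. The H2A-H2B pair H2ac23 and H2bc23 and the neighbours H4c1 and H3c1 had one in all 12 lists. No histone gene had a summit among the 4028 best in all 12 lists, and the most was 6 lists. H1f6, the testis H1 gene, had a summit in 0 lists. The testis pair H2ac1 and H2bc1 shared summits that appeared in the 2 KO lists of day 3 alone.

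Many of the genes share their summit. Starts of the 9 divergent H2A-H2B pairs lie 164 to 281 bp apart, and summits within 250 bp of each other merged into 50 regions near the 53 genes. Of these, 36 were in at least 7 of the 8 lists of days 3 and 5, and 18 of the 36 lay within 1 kb of more than 1 histone gene. Values of pair partners are therefore often 1 measurement, not 2. How alike the copies are in sequence was not measured. How reads that align to several copies were treated is not given in the sources used here.

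**Figure D2:**
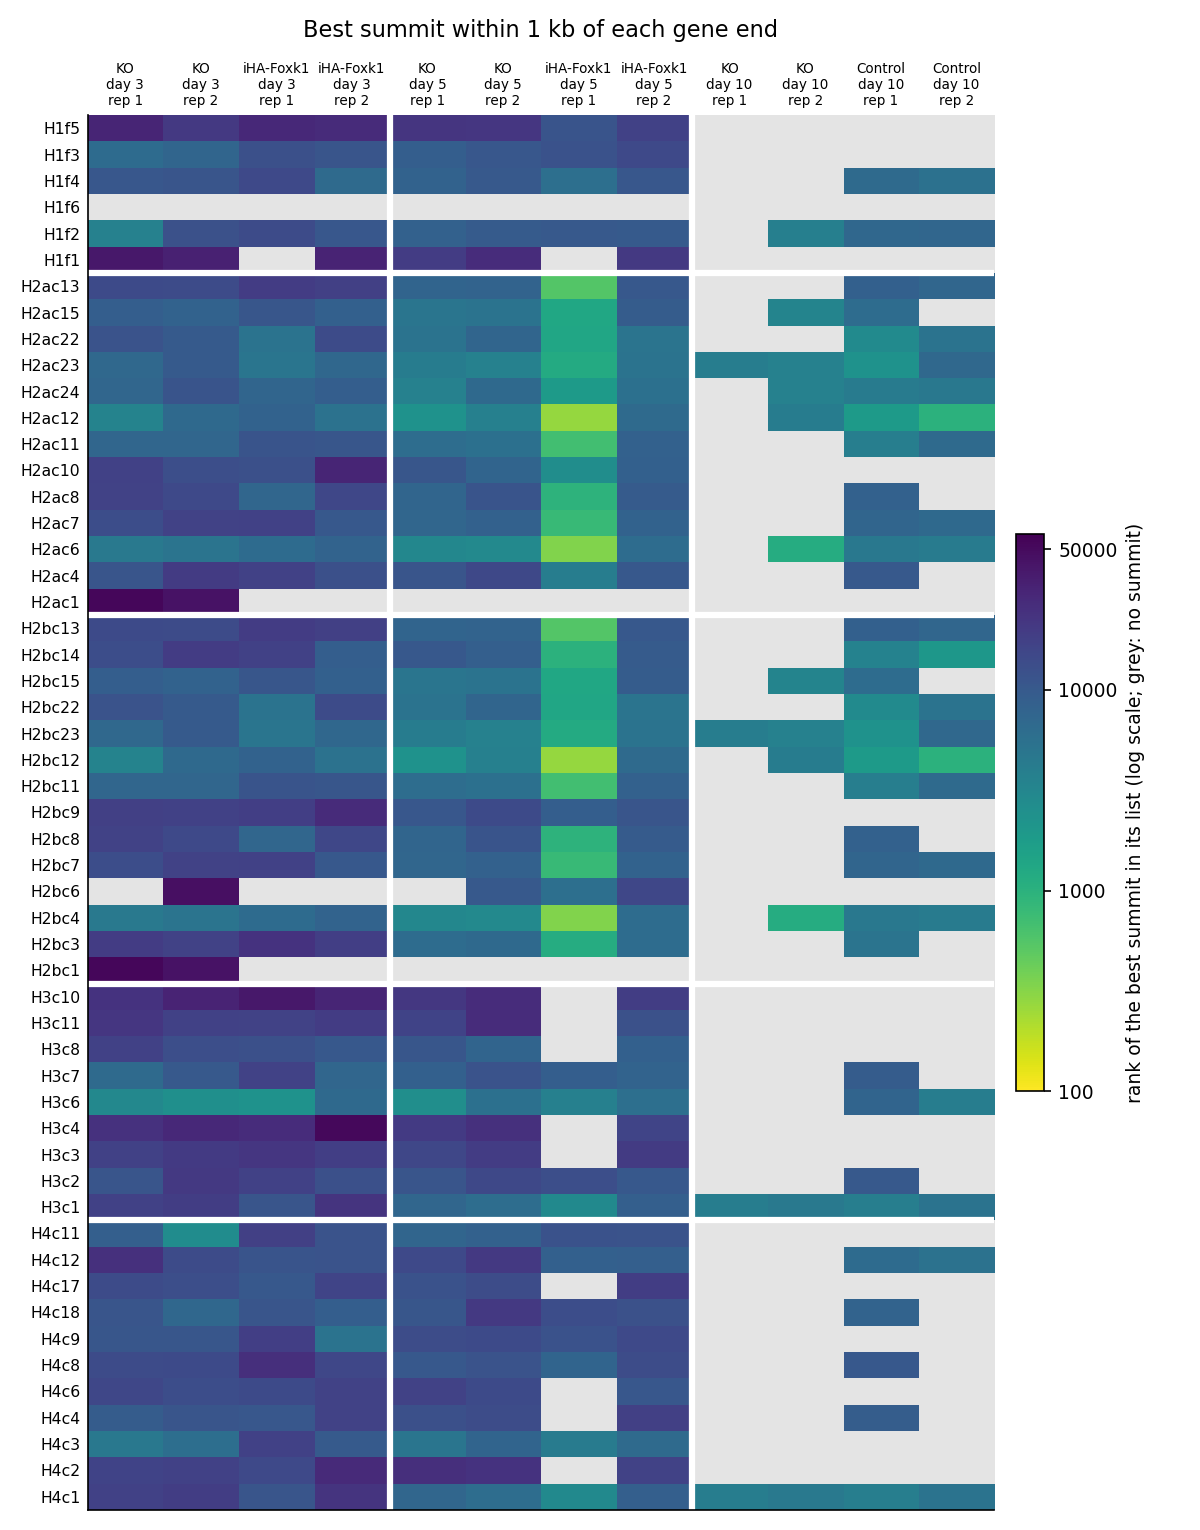
Rank of the best summit in its own list (colour, log scale, yellow near the top, grey for no summit) for each of the 53 genes (down, by class) in each of the 12 lists (across, KO left of its control at each day). Day 10 columns are mostly grey, H1f6 is grey throughout, and H2A and H2B genes are near the top in iHA-Foxk1 day 5 replicate 1.

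Among the linker histone (H1) genes, H1f2, H1f4 and H1f3 had the best median ranks over the 8 lists of days 3 and 5, at 9918, 10305.5 and 10869.5. H1f2 ranked 3643 and 12406 in KO and 13920 and 10518.5 in iHA-Foxk1 at day 3. At day 5 it ranked 8297 and 9510 in KO and 9990 and 9846 in iHA-Foxk1. The KO and iHA-Foxk1 ranks of H1f2 overlapped at day 3 and not at day 5, where both KO libraries were nearer the top by a small margin. H1f4 ranked 10598 and 11245 in KO, against 14516 and 6580 in iHA-Foxk1 at day 3, so the groups overlapped. The annotated end of H2bc6, whose gene model is long (23583670 to 23621124), lies near H1f4, and the 2 genes share a summit in KO day 5 replicate 2 and in iHA-Foxk1 day 5 replicate 1.

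H1f3 ranked 6463 and 7535 in KO, against 12550.5 and 11115 in iHA-Foxk1 at day 3. Both KO libraries stood nearer the top, by 0.76 on the log2 rank scale, and the difference did not pass the test described below. H1f5 and H1f1 were the low end of the class: H1f5 ranked 30750 and 20903 in KO, against 28428 and 27336 in iHA-Foxk1 at day 3. H1f1 ranked 39286 and 33511 in KO at day 3, against no summit and 31502 in iHA-Foxk1.

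Among the core histone genes, the H2A and H2B genes, whose products form the outer dimers of the nucleosome, held the higher places. Their median rank was nearer the top than that of the H1, H3 and H4 genes in 11 of the 12 lists, the exception being Control day 10 replicate 2. In KO day 10 replicate 1 each side held only 1 distinct summit. At day 3 the H2A and H2B median stood at 19.6% and 24.4% of the list in KO and at 20.2% and 19.5% in iHA-Foxk1. The H1, H3 and H4 median at day 3 stood at 23.7% and 25.0% in KO and at 27.2% and 28.6% in iHA-Foxk1. All genes with a summit at day 3 stood at 18.2% and 19.7% in KO and at 19.6% and 19.7% in iHA-Foxk1. At day 5 the H2A and H2B median stood at 12.7% and 17.8% in KO, against 6.73% and 24.3% in iHA-Foxk1. The H1, H3 and H4 median at day 5 stood at 23.1% and 32.1% in KO, against 60.6% and 36.3% in iHA-Foxk1. All genes with a summit at day 5 stood at 15.0% and 17.5% in KO and at 35.8% and 20.8% in iHA-Foxk1. At day 5 the H2A and H2B median was thus nearer the top than that of all genes only in replicate 1 of each genotype. In iHA-Foxk1 day 5 replicate 1 the classes thus lay far apart, with H2A and H2B at a median rank of 977.5 of 14519, against 8283 of 34040 in replicate 2.

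**Figure D3:**
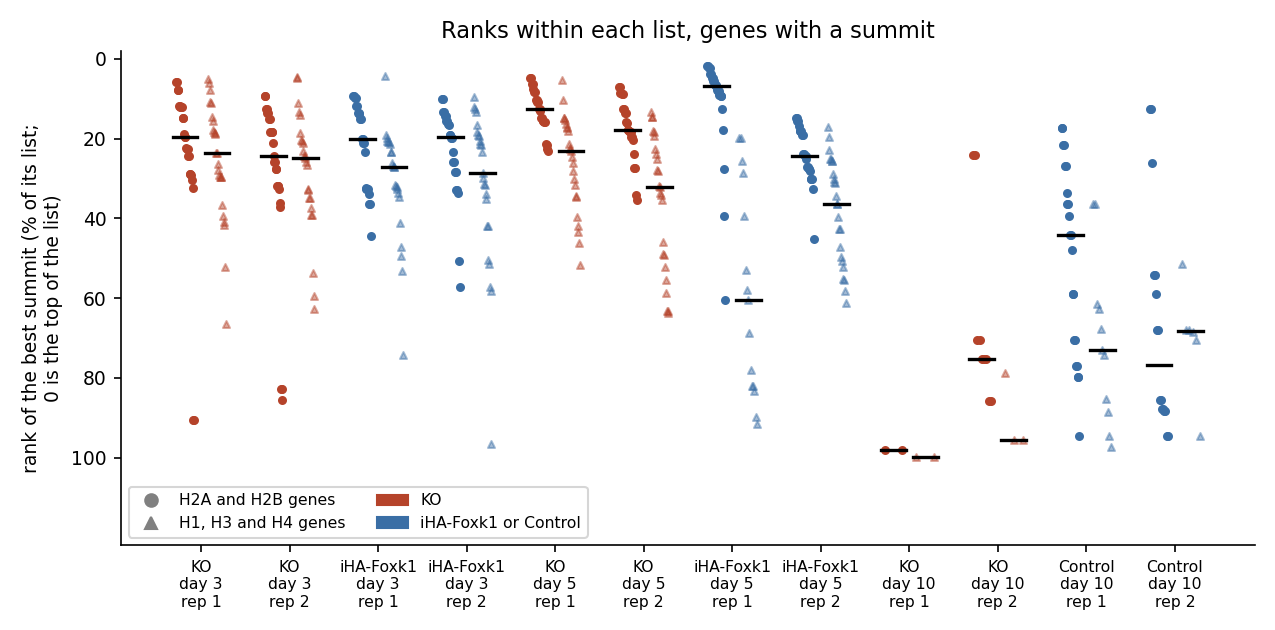
Rank of the best summit as a percent of its own list (0 is the top), 1 point per gene with a summit, for the H2A and H2B genes (circles) and the H1, H3 and H4 genes (triangles) by library, with KO left of its control at each day and bars at the medians. The medians lie farthest apart in iHA-Foxk1 day 5 replicate 1, at 6.73% and 60.6%.

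The pair H2ac12 (22035122 to 22035643, minus strand) and H2bc12 (22035821 to 22036320, plus strand) had the best median rank of the H2A and H2B genes, 4554. Its shared summit ranked 3452 and 6674 in KO and 8044 and 5407 in iHA-Foxk1 at day 3. At day 5 it ranked 2320 and 3701 in KO, against 273 and 6544 in iHA-Foxk1. The KO libraries lay between the iHA-Foxk1 libraries at day 5, and the groups overlapped at day 3. The fitted KO difference for H2ac12 was 0.46 at day 3 (95% interval -2.26 to 3.17) and -1.13 at day 5 (-3.85 to 1.58), on the log2 rank scale where positive is nearer the top in KO. Without iHA-Foxk1 day 5 replicate 1 the day 5 difference was 1.16, without replicate 2 it was -3.42 (limma adjusted p = 0.0129), and without KO day 3 replicate 1 the day 3 difference of H2ac12 was -0.017, so neither direction holds in every fit.

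The pair H2ac6 and H2bc4 followed with a median rank of 4807, and H2ac23 and H2bc23 with 5125. H2ac6 and H2bc4 ranked 3084 and 2963 in KO, against 333.5 and 6184 in iHA-Foxk1 at day 5. The pair H2ac23 and H2bc23, present throughout, ranked 4056 and 3614 in KO and 1192 and 5280 in iHA-Foxk1 at day 5. In each of these pairs the KO libraries again lay between the iHA-Foxk1 libraries.

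H3c6, an H3 gene at 23561475 to 23562385 (minus strand), had the best median rank of all the histone genes, 3384.75. It ranked 3063.5 and 2451 in KO and 2294 and 6777 in iHA-Foxk1 at day 3. At day 5 it ranked 2552.5 and 5616 in KO and 3706 and 5855 in iHA-Foxk1, and at day 10 it had no summit in KO and ranked 7712.5 and 3987.5 in Control. The KO and iHA-Foxk1 libraries overlapped on both days, with fitted differences of 0.52 at day 3 (95% interval -0.96 to 2.01) and 0.30 at day 5 (-1.18 to 1.78). The sign for H3c6 turned without 1 library: it was -0.26 at day 3 without iHA-Foxk1 day 3 replicate 2, and at day 5 -0.27 without KO day 5 replicate 1 and -0.031 without iHA-Foxk1 day 5 replicate 2. The H3 genes H3c7 and H3c1 came next, with median ranks of 8601 and 9930.5.

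Of the H4 genes, H4c3 had the best median rank, 6294.75. It ranked 4580.5 and 5944 in KO, against 17254.5 and 9903.5 in iHA-Foxk1 at day 3. The 2 KO libraries were both nearer the top. At day 5 the groups overlapped, with 4994 and 7691.5 in KO and 4175 and 6645.5 in iHA-Foxk1. H4c11 ranked 8615 and 2643 in KO, against 18020 and 11746 in iHA-Foxk1 at day 3, a difference of 1.45 that did not pass the test.

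KO was compared with its control in each day by presence. A gene was called in 1 genotype when both libraries of that genotype, and neither of the other, had a summit among the N best. At day 3, H2ac1 and H2bc1 were called KO-only, where 1.2% of the 14444 genes tested were. Their shared summit ranked 53379 and 44286.5 in KO, near the end of both lists, and was in neither iHA-Foxk1 list. No histone gene was control-only at day 3, where 0.789% of genes were.

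At day 5, H4c17 and H4c4 were called KO-only (1.36% of 11431 genes) and H4c12 control-only (1.7%). H4c17 ranked 11974 and 13442.5 in KO, against no summit and 18874 in iHA-Foxk1. H4c4 ranked 12663 and 13525.5 in KO, against no summit and 17743 in iHA-Foxk1. H4c12 ranked 14551 and 20735 in KO, against 8412 and 8595 in iHA-Foxk1, so it had a summit in all 4 libraries. These 3 calls are set by the limit of 14519 summits: 0 histone genes were called in either direction when whole lists were used.

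At day 10, H2bc14, H2ac12 and H2bc12 were called control-only, where 9.07% of the 4742 genes tested were, and 0 histone genes were KO-only (1.14%). H2bc14 had no summit in KO and ranked 3559.5 and 2034.5 in Control. H2ac12 and H2bc12 ranked 1831 and 985 in Control, against no summit and 4078 in KO. Of the 53 histone genes, 18 had a summit among the 4028 best in at least 1 library of day 10 and were tested, and the 3 called rest on 2 summits, since H2ac12 and H2bc12 share theirs.

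Presence was also counted over all days, as the difference between KO and control libraries among the N best of the day. It was higher in KO for 16, lower for 14 and equal for 22 of the 52 histone genes tested. An exact two-sided permutation test over all arrangements of genotype within days gave 0 histone genes an unadjusted p under 0.05. It gave 0 of all 14525 genes one (0%), with a smallest gene p of 0.0556, and the smallest adjusted p was 1. For a gene with a summit in every library of day 3, as most histone genes had, rearranging that day changes nothing. Such a gene could not go under 0.0556, so the test could not decide on it.

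The ranks themselves were compared with limma over the 8 libraries of days 3 and 5. The measure was minus log2 of the rank, so that a positive difference, or rank gain, is nearer the top in KO or at day 5. A gene with no summit among the 14519 best took the next rank. The fit held 10955 genes with a summit there in at least 2 libraries, among them 43 histone genes, which had passed that filter by their ranks in the same libraries.

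No histone gene passed an adjusted p of 0.05 in KO against iHA-Foxk1. At day 3, 0.0456% of all genes were nearer the top in KO and 0.155% farther. At day 5 these shares were 0% and 0.00913%, and for the mean of both days 0.0365% and 0.128%. At an unadjusted p under 0.05 there were 3, 2 and 3 histone genes, and 605, 1150 and 934 genes in all. The median half-width of the histone genes' 95% intervals was 1.4 at day 3 and 1.4 at day 5. Without iHA-Foxk1 day 5 replicate 1, and with N then 34040, it was 0.804 at day 3 and 0.985 at day 5. The smallest adjusted p of a histone gene at day 5 was 0.361.

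At day 3 the median rank gain of KO over iHA-Foxk1 was 0 for the 25 H2A and H2B genes tested and 0.07 for the 18 H1, H3 and H4 genes, and 0 for all genes. At day 5 it was -1.13 for H2A and H2B, negative in 25 of 25, and -0.10 for H1, H3 and H4, while all genes stood at 0.02. Without iHA-Foxk1 day 5 replicate 1 the day 5 median of H2A and H2B was 0.20, positive in 18 of 25. Without iHA-Foxk1 day 5 replicate 2 it was -3.08, and 27 histone genes were then farther from the top in KO, where 14.4% of all genes were. The direction of the H2A and H2B difference at day 5 therefore rests on 1 library.

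Day 5 was compared with day 3 in the same fit. In the mean of both genotypes, H2bc3, H4c1 and H3c1 moved nearer the top and 0 histone genes moved farther, where 12.3% of all genes moved nearer and 3.4% farther. At an unadjusted p under 0.05 there were 15 histone genes and 4000 genes in all. With 3 of the 43 tested, the share of histone genes was not above that of all genes.

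H2bc3, an H2B gene at 23746734 to 23747223 (plus strand), ranked 6328 and 6661 in KO and 1153 and 6200 in iHA-Foxk1 at day 5. At day 3 it ranked 19103 and 16990 in KO and 23729 and 18166 in iHA-Foxk1. All 4 libraries of day 5 were nearer the top than all 4 of day 3. In the fit, however, all 4 day 3 ranks lay past N and took the next rank after N. H2bc3 thus entered the fit by its day 5 ranks alone, and its gain could not be negative. The day 3 libraries did not differ from each other there, so they added no spread. With these limits the rank gain was 1.80 (SE 0.47, limma adjusted p = 0.0348). H2bc3 was not among the genes in a divergent pair.

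H4c1 (23760795 to 23761249, minus strand) and H3c1 (23761885 to 23762386) shared 1 summit. It ranked 7211 and 6148 in KO and 2880 and 8735 in iHA-Foxk1 at day 5. At day 3 it ranked 17501 and 18626 in KO and 11126 and 22724 in iHA-Foxk1. The days did not overlap, and the rank gain of H4c1 and of H3c1 was 1.23 (SE 0.34, limma adjusted p = 0.0420). Of the day 3 ranks only 11126 lay within N, and the others took the next rank after N in the fit. Each of these calls was lost when any 1 library of KO day 3, KO day 5 or iHA-Foxk1 day 3 was left out, with 0 histone genes called in each such fit.

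**Figure D4:**
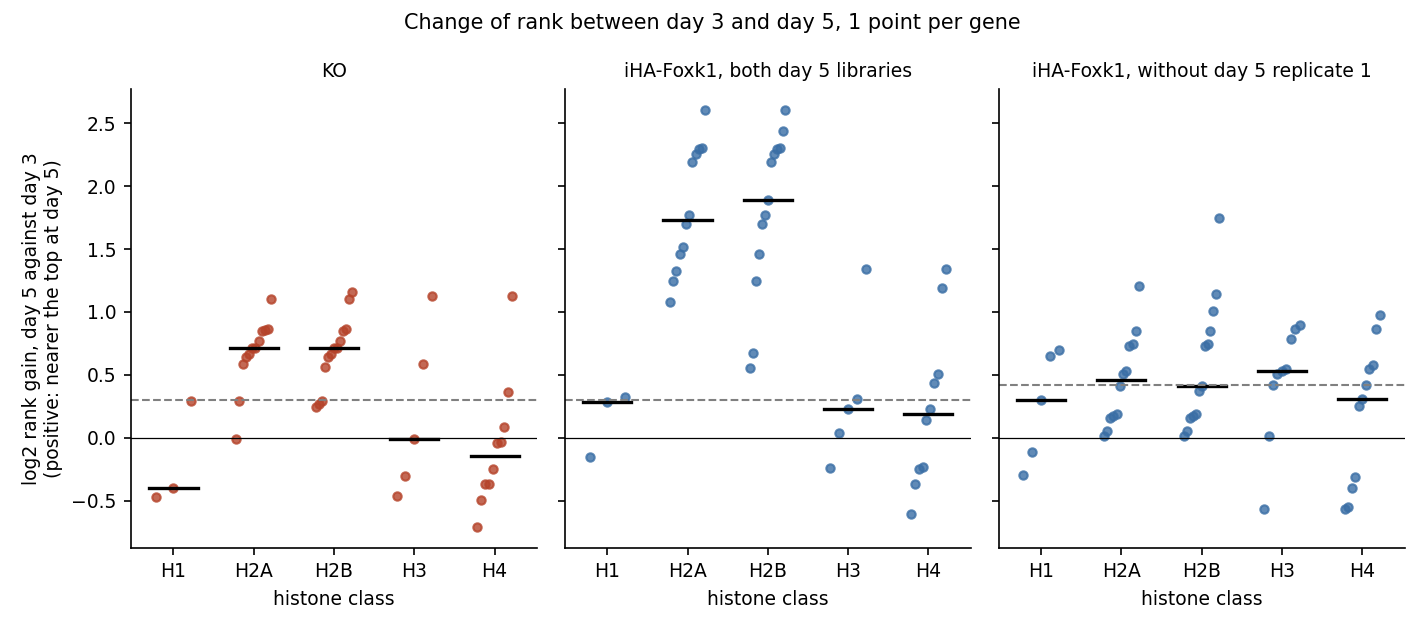
Fitted log2 rank gain of day 5 over day 3 (positive is nearer the top at day 5), 1 point per histone gene tested, by class, in KO, in iHA-Foxk1, and in iHA-Foxk1 without day 5 replicate 1; bars are class medians and the dashed line is the median of all genes. H2A and H2B genes are positive in 24 of 25 in KO and 25 of 25 in iHA-Foxk1, with medians of 0.71 and 1.77. Without that library their iHA-Foxk1 median is 0.41, against 0.42 for all genes. Pair partners often share 1 summit, so points are not independent. Ranks past N took the next rank, so a gene with all its day 3 ranks past N could not be negative.

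As a class, the H2A and H2B genes stood nearer the top at day 5 than at day 3. The rank gain was positive in 25 of 25 in the mean of both genotypes, with a median of 1.23, against 0.05 for H1, H3 and H4 (10 of 18 positive) and 0.31 for all genes. The limit N bears on these signs, since ranks past N took the next rank. For H2bc3 and H2bc9 all day 3 ranks lay past N, so their gain could not be negative. For H2ac13 and H2bc13 this held in iHA-Foxk1. Pair partners share summits, so the 25 genes are not 25 measurements: H2A and H2B genes had 15 to 17 distinct best summits a list. In KO the medians were 0.71 for H2A and H2B, -0.15 for H1, H3 and H4 and 0.30 for all genes. In iHA-Foxk1 they were 1.77, 0.23 and 0.30. No histone gene passed the test in KO alone, where 0% of genes did in either direction, or in iHA-Foxk1 alone, where 0.475% moved nearer and 0.712% farther. At an unadjusted p under 0.05 there were 2 histone genes of 43 in KO and 16 in iHA-Foxk1, against 2054 and 3135 of all 10955 genes. With 1 gene kept per shared summit set, which drops mostly H2A or H2B partners, 33 histone genes of all classes were left. Their median gain in the mean of both genotypes was 0.47, against 1.09 for the 43 and 0.29 for all genes. In KO it was 0.29, against 0.27 for all genes, and in iHA-Foxk1 0.67, against 0.27.

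The values changed when iHA-Foxk1 day 5 replicate 1 was left out, which also raised N, the shortest list, to 34040. In the mean of both genotypes the H2A and H2B median was then 0.64, against 0.21 for H1, H3 and H4 and 0.38 for all genes. The iHA-Foxk1 median was 0.41 for H2A and H2B, against 0.42 for H1, H3 and H4 and 0.42 for all genes. In KO, which does not hold that library, the H2A and H2B median was then 0.76, positive in 25 of 25, against 0.08 for H1, H3 and H4 and 0.32 for all genes. Without that library and with the larger N, H2bc3, H4c1 and H3c1 passed the test in KO alone, where 6.96% of genes moved nearer the top. The same 3 genes passed in KO alone when the 4 KO libraries were fitted by themselves with their own N (7.27%). H2bc3 and H3c4 passed in iHA-Foxk1 alone (11.1%), and 11 histone genes in the mean of both (27.2%), 6 of them H2A or H2B.

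Whether the change between the days differed by genotype was tested as an interaction. It passed for 0 histone genes and 0 genes in all (0%), with 0 histone genes and 623 genes at an unadjusted p under 0.05. Without iHA-Foxk1 day 5 replicate 2 it passed for 18 histone genes, where 7.85% of genes were farther from the top, and without iHA-Foxk1 day 5 replicate 1 for 0.

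The summits also differed in place. The median position of the best summit relative to the annotated start (negative is upstream) was 21 and 12.5 bp in KO at day 5, against 133 and -7 bp in iHA-Foxk1. In KO at day 5, 60.9% and 63.0% of genes had their best summit from 300 bp before to 100 bp after the start. In iHA-Foxk1 at day 5 the shares were 22.2% and 80.4%. At day 3 the shares were 43.8% and 58.3% in KO and 46.7% and 28.3% in iHA-Foxk1. These values are per gene with a known start, without H2bc6, so a summit shared by a pair counts for both genes. Some best summits lie nearer a neighbour's start, as that of H2ac10 near H3c8 in KO at day 5. In iHA-Foxk1 day 5 replicate 1, 11 of 16 distinct best summits of H2A and H2B genes lay inside an H2A gene, against 0 to 5 in the other 11 lists.

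**Figure D5:**
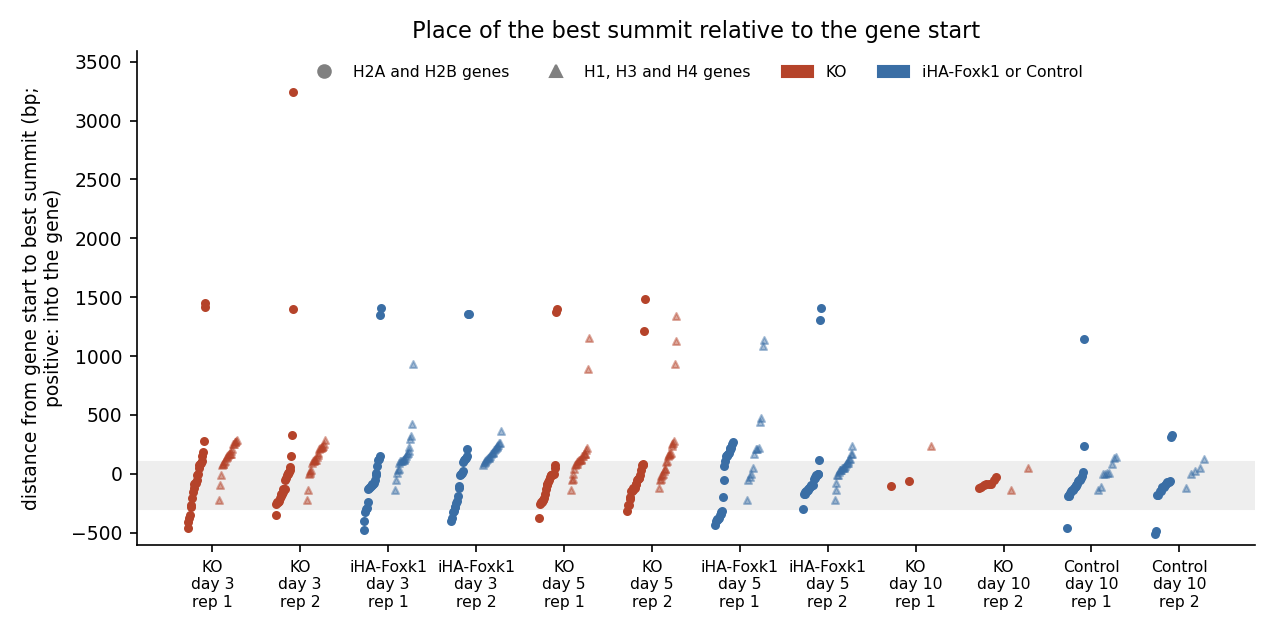
Distance in bp from the annotated gene start to the best summit (negative is upstream), 1 point per histone gene with a known start, by library, with KO left of its control at each day and the range from 300 bp before to 100 bp after the start shaded. Medians over all classes at day 5, without H2bc6, are 21 and 12.5 in KO and 133 and -7 in iHA-Foxk1.

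H4 summits lay mostly inside the gene, with class medians of 210 and 163 bp downstream of the start in KO and 151 and 187 bp in iHA-Foxk1 at day 3. The H4 windows held CCAAT or ATTGG in 3 of 11 and TATAAA in 8 of 11. The TATAAA matches in H4 windows began at -250 to 41 from the start, so not at 1 set distance. H2A summits at day 5 had class medians of -3.5 and -20.5 bp in KO, against 161.5 and -62.5 bp in iHA-Foxk1.

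The genes that act on this cluster were read from lists. Of 16 regulators and mRNA processing factors, among them Npat, Hinfp, Slbp and Pou2f1, 15 had a summit in each list of days 3 and 5 other than iHA-Foxk1 day 5 replicate 1, which had 14. At day 10 there were 9 and 8 in KO, against 16 and 13 in Control, in whole lists that were shorter in KO. In the mean of both genotypes, 2 of 15 tested moved nearer the top at day 5, where 12.3% of all genes did. Cpsf3, the nuclease that cuts histone pre-mRNA, had a rank gain of 1.51 (limma adjusted p = 0.0228). Eri1, an exonuclease that acts on the histone mRNA stem-loop, had a rank gain of 1.25 (adjusted p = 0.0408). Of the day 3 ranks of Eri1 only 13622 (KO replicate 1) lay within N, and the others took the next rank after N.

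Of the 7 replication-coupled chaperones and partners, which carry new histones to replicating DNA, 1 moved nearer the top at day 5. It was Chaf1a, a subunit of chromatin assembly factor 1, with a rank gain of 1.19 (limma adjusted p = 0.0459). The histone chaperone gene Asf1b ranked 347 and 671 in KO and 51 and 600 in iHA-Foxk1 at day 5. At day 3 it ranked 1282.5 and 1556 in KO and 1715 and 1262 in iHA-Foxk1. The days did not overlap, and its rank gain of 2.31 had a limma adjusted p of 0.0587. Without iHA-Foxk1 day 5 replicate 1 the gain of Asf1b was 1.42 (0.0224), and without replicate 2 it was 3.20 (0.00216). Replacement histone genes, such as H3f3a, moved in 0 of 6 tested.

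Of 13 replication histone genes on other chromosomes, 13 and 13 had a summit in KO and 13 and 12 in iHA-Foxk1 at day 3, and 12 and 13 in KO against 11 and 12 in iHA-Foxk1 at day 5. Of the 13, H2aw, H2bc21, H3c13 and H2bc18 moved nearer the top at day 5, the last 2 with 1 shared summit, where 12.3% of all genes did. H2aw had a rank gain of 1.17 (limma adjusted p = 0.0385) and H3c13 of 0.90 (0.0216). All day 3 ranks of H3c13 and H2bc18 lay past N and took the next rank after N. Both genes thus entered the fit by day 5 alone, and their gain could not be negative. Of the day 3 ranks of H2aw only 13779 (KO replicate 1) lay within N, and of H2bc21 only 13933.5 (iHA-Foxk1 replicate 1). The day 5 calls of Cpsf3, Eri1, Chaf1a, H2aw, H2bc21, H3c13 and H2bc18 were each lost when any 1 library of KO day 3, KO day 5 or iHA-Foxk1 day 3 was left out, as 0 of all genes passed in those 6 fits. In KO against iHA-Foxk1, 0 genes of these lists passed the test at day 3, at day 5 or in the mean of both.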

How the data were processed

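ATAC-seq summit lists of 12 libraries were read. Bowtie2 2.2.4, MACS2 and the mm10 build are named by the authors, per the submitters' processing notes, and no MACS2 version is named there. Each deposited list gives positions and a -log10 p-value or q-value. Which of these it is was not stated in the labels or headers. The score was used only to rank summits within a list, with tied scores sharing their mean rank. Peak names of both KO day 5 lists carry the tag D7, and the label day 5 was followed. Names at days 3 and 5 carry a deduplication tag that those at day 10 lack.

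Genes were the protein-coding genes of RefSeq (GRCm38.p6) on chromosomes 1 to 19 and X. Summits on other sequences were left out (21 to 246 a list). Ranks past N, the shortest list compared, took N + 1. limma 3.58.1 in R 4.3.3 fitted 4 groups over the 8 libraries of days 3 and 5, with an intensity-dependent prior variance, for genes with a summit among the N best in at least 2 libraries. Benjamini-Hochberg adjustment ran over all genes tested, with a threshold of 0.05. Presence over all days was tested by exact permutation of genotype within days. Tested on simulated shifts of 2 on the log2 scale for KO against iHA-Foxk1 at day 3 (10955 genes), the fit recovered 22 of 200 shifted genes, with 2 unshifted genes called. Figures were drawn with matplotlib 3.10.9.

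The genes named were those called or past the threshold, the 3 best median ranks of each class, the testis genes, genes among the N best of all 12 lists, and genes with no summit. Other genes named were chosen after their values were seen. The members and lists were chosen with earlier results of these data known. Alternatives changed N, the distance to gene ends, the filter, the scale of the ranks, how ties and absence were handled, the replicate block and the libraries left out.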

Additional observations from a re-analysis of the deposited data

How the results depend on the processing

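The summit lists hold no read counts, so what depth limits is known only through list length, and day 10, with 4028 to 10548 summits, holds few histone gene summits at all. With 2 libraries a group, 1 library decides several values. In the main fit H2bc3 could not have a negative gain at day 5, as its day 3 ranks all lay past N. The day 5 against day 3 gains of H2bc3, H4c1 and H3c1 kept their sign under every alternative. The KO differences of H2ac12 and H3c6 did not, and the H2A and H2B median of KO against iHA-Foxk1 at day 5, -1.13, was 0.20 without iHA-Foxk1 day 5 replicate 1. Of the main values, 146 alternatives stayed within 1.5 times or the spread between libraries and 48 moved. Counts of 0 that stayed 0 were taken as unmoved, among them those of the permutation test, so the 146 are not a measure of how firm the results are.

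The histone genes with a summit per library had medians of 50, 40 and 6 at days 3, 5 and 10. With N divided by 2 they were 46, 17.5 and 2, and with whole lists 49.5 at day 5 and 17 at day 10. Within 2 kb they were 52 at day 3 and 46 at day 5, within 500 bp 38.5 at day 5, and at starts alone 48 at day 3 and 36 at day 5.

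The day 3 KO-only count of 2 was 0 with N divided by 2. The day 5 KO-only count of 2 was 0 with N divided by 2, 0 with whole lists, 1 within 2 kb and 0 with absence judged on whole lists. The day 5 control-only count of 1 was 0, 0 and 0 with N divided by 2, whole lists and absence on whole lists, and 3 within 500 bp. The day 10 control-only count of 3 was 12 with whole lists, where 2117 of 7846 genes were control-only, and 1 with absence on whole lists.

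Between the days, the mean-of-genotypes count of 3 was 0 with N divided by 2, 1 with whole lists, 0 for genes in at least 1 library and 1 within 500 bp. The KO count of 0 was 3 (H2bc3, H4c1 and H3c1) when the 4 libraries compared were fitted by themselves with their own N, an alternative chosen after seeing the data, with 7.27% of genes nearer the top at day 5. The iHA-Foxk1 count of 0 was 2 with normal scores and 1 for genes in at least 4 libraries. The cause of these shifts was not tested beyond the construction of each alternative.

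Leaving out 1 library at a time, where the lone library of a group is assumed to vary like the others, gave these ranges. Day 3 KO-only counts were 2 to 3 and control-only counts 0 to 0. Day 5 KO-only counts were 2 to 3 and control-only counts 1 to 4, with 4 without KO replicate 1. Day 10 KO-only counts were 0 to 6, with 6 without KO replicate 1 and 2 without Control replicate 1, and control-only counts 3 to 7, with 7 without Control replicate 2. Rank fits of KO against iHA-Foxk1 gave 0 to 0 histone genes at day 3, 0 to 27 at day 5 and 0 to 17 in the mean, and day 5 against day 3 gave 0 to 3 in KO, 0 to 30 in iHA-Foxk1 and 0 to 28 in the mean. The highest counts, other than in KO, came without iHA-Foxk1 day 5 replicate 2. In that fit 1533 of all 10674 genes were farther from the top in KO at day 5 and 1051 in the mean, and 2472 were nearer the top at day 5 in iHA-Foxk1 and 3157 in the mean. In KO 3 passed without either iHA-Foxk1 day 5 library, where 931 of 13368 and 1017 of 10674 genes were nearer the top. Leaving out replicate 1 also raises N to 34040. The rank gain of H2bc3 was 1.61 to 2.41 and that of H4c1 and H3c1 1.14 to 1.63. The KO difference of H2ac12 was -0.017 to 0.93 at day 3 and -3.42 to 1.16 at day 5, and that of H3c6 was -0.26 to 1.31 at day 3 and -0.27 to 0.87 at day 5, with -0.031 without iHA-Foxk1 day 5 replicate 2.

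Same-numbered libraries did not vary together (r of their deviations from the group means -0.057 to -0.01 over 10955 genes), so the numbers were not taken as pairs. With the replicate number as a block, 4 histone genes passed between the days in the mean of genotypes (H2bc3, H4c1, H3c1 and H2ac10) and 0 in KO against iHA-Foxk1. The blocked permutation of 64 arrangements gave 0, with a smallest p over all genes of 0.125. A gene with a summit in every library of day 3 could not go lower in it.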
